A study of Homo sapiens with 6 samples.

Results

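Gene deserts are long stretches of chromosome without a protein-coding gene. Here they were taken as sequence lying outside every protein-coding gene and over 100 kb from the nearest protein-coding gene end, and the open chromatin regions inside them were described. Regions were built by chaining the peak summits of all 6 libraries on chromosomes 1 to 22 wherever neighbouring summits lay under 500 bp apart, and a region belonged to a desert when its midpoint did. This gave 13558 desert regions of 91874 regions in all, or 14.8%. The choice used position alone and no score, library or group.

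The data are InTAC-seq summit lists from GM12878, a lymphoblastoid line, that is, B cells immortalised with Epstein-Barr virus. InTAC-seq adapts ATAC-seq to cells that were fixed and stained for a protein inside the cell, and like it uses the Tn5 transposase to cut and tag open chromatin. The 2 H3K27ac high and the 2 H3K27ac low libraries came from low-passage cells stained for viability, fixed in 1.6% paraformaldehyde, permeabilised, stained with an antibody to acetylated histone H3 lysine 27 and sorted on cell size, viability and that stain. The 2 live control libraries came from live, unsorted cells. Every replicate held 50000 cells and was transposed for 30 min at 37 °C, and crosslinks were then reversed overnight in all but the live control. The protocol text on fixation and staining is attached to all samples alike, so which of its steps the live control went through before transposition is unclear. Whichever they were, the steps that separate both sorted groups from the live control, sorting and crosslink reversal among them, cannot be told apart. All 6 libraries are of 1 cell line, and the replicates are portions of counted cells, so every p-value measures the spread between these samples, which may be technical. The lists hold no expression values, so the cell type was not checked against marker genes.

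Deserts were once thought of as inert, but many hold enhancers, which are stretches of DNA that bind transcription factors and can act on a gene far along the chromosome. Deserts beside developmental regulators are known for such long-range enhancers, and those around MYC hold enhancers active in blood cells. Acetylation of H3 lysine 27 marks active promoters and enhancers. Many deserts also hold long noncoding RNA (lncRNA) genes, whose promoters are open regions without a protein-coding gene nearby.

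The sequences of a few desert regions show what such an opening looks like where it coincides with an annotated transcript start. They are promoter windows of lncRNA genes from RefSeq on GRCh38.p14, from 250 bases before to 50 bases after the start. Each is written 5′ to 3′ on the gene's strand, with capitals marking letters that match 1 of 11 motifs searched on both strands. LOC105379013 and ZFHX3-AS1 belong to desert regions named for their high rank in every library. MIR181A1HG, LINC01358 and LINC02391 were chosen after their values were seen, because they lie in deserts beside the B lineage genes PTPRC, JUN and BTG1. LOC124902786, in the desert beside the B lineage gene ETS1, met the same conditions and is not shown. Its windows held no AP-1 match, and a MEF2 match was the only one found in them.
LOC105379013: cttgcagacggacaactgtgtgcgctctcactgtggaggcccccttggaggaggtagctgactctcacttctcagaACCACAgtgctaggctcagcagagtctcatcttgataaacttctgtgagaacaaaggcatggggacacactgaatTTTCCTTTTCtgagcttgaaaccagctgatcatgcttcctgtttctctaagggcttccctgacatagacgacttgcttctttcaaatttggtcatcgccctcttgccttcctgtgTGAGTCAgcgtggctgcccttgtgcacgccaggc
ZFHX3-AS1: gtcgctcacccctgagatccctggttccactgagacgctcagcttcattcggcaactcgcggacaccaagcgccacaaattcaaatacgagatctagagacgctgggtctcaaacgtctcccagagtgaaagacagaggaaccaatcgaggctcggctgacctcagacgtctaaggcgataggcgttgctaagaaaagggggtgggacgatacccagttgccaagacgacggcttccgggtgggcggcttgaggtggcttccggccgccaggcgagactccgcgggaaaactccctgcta
MIR181A1HG: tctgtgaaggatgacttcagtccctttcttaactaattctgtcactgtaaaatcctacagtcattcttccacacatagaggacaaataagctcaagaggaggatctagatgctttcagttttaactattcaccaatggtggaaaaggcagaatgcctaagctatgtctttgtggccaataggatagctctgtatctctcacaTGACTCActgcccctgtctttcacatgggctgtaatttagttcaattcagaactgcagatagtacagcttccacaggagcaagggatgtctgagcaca
LINC01358: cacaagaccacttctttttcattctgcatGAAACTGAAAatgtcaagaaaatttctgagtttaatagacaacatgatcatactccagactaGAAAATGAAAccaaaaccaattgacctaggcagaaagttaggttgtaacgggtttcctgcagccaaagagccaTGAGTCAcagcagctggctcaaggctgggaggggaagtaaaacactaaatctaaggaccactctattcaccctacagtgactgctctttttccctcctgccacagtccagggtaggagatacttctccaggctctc
LINC02391: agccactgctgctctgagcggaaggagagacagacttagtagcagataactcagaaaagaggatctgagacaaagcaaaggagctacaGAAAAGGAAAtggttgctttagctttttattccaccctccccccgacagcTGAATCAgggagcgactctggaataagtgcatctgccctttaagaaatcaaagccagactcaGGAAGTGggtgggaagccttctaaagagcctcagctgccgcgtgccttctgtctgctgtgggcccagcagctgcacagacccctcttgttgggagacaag

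The LOC105379013 window spans chr5:68434380-68434679 on the minus strand, 132.6 kb from PIK3R1, which encodes the regulatory subunit of phosphoinositide 3-kinase. Its region was at rank 975 and 739 in the live control libraries, 931 and 145 in high libraries and 598 and 1039 in low libraries, where rank 1 is the best-scored region of a list. The summits lay 17 to 52 bases downstream of the annotated start, so that 5 of the 6 fell inside the window. The capitals are an AP-1 match at bases 267 to 273, a RUNX match at 77 to 82 and an interferon response match at 152 to 161.

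The ZFHX3-AS1 window spans chr16:72664883-72665182 on the plus strand, 117.8 kb from ZFHX3, a homeobox transcription factor gene. It overlaps the window of LINC01572, which starts on the other strand, so the summits of this region cannot be given to either transcript. No searched motif was found in it. The region was at rank 770 and 437 in the live control, 1495 and 3340 in high and 1136 and 3623 in low libraries, with summits 62 to 94 bases upstream of the ZFHX3-AS1 start.

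MIR181A1HG is the host gene of the miR-181a and miR-181b hairpins on chromosome 1, and its window spans chr1:198937380-198937679 on the minus strand, with an AP-1 match at bases 203 to 209. Its region lay 180 kb from the nearest protein-coding gene end in the desert between PTPRC and NR5A2. PTPRC encodes CD45, the receptor phosphatase found on white blood cells. The region was at rank 991 and 1810 in the live control, 1828 and 2774 in high and 9069 and 4165 in low libraries, so both low libraries placed it below the other 4. The hairpins lay inside the host gene and away from any desert region, MIR181A1 at 60755 bp from the nearest one. Regions within 100 kb of PTPRC do not count as desert regions, so this distance does not show whether other open regions lay nearer. Both miRNAs are known regulators of lymphocyte development. The lines below give the 5p arms, with bases 2 to 8, the seed that pairs with a target, in capitals.
hsa-miR-181a-5p: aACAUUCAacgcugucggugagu
hsa-miR-181b-5p: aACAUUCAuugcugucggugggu

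These arms have the same seed. A total of 14 desert regions lay within 1 kb of a miRNA gene end, and 2 of them were called in all 6 libraries. The one at MIR5087, 11 bp from its end on chromosome 1, was at rank 3482 and 5064 in the live control, 17427 and 13603 in high and 13410 and 15499 in low libraries. The one at MIR4437, 143 bp from its end on chromosome 2 and 151 kb from the integrin gene ITGA4, was at rank 5577 and 3463, 2844 and 2921, and 9327 and 10045 in the same order. MIR5087 lies beside PPIAL4G, of a family of near-identical copies, so reads there can be shared between copies. The mature sequences of MIR5087 and MIR4437 have different seeds.
hsa-miR-5087: gGGUUUGUagcuuugcuggcaug
hsa-miR-4437: uGGGCUCAggguacaaagguu

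The LINC01358 window spans chr1:59020226-59020525 on the plus strand, in the desert between JUN, a subunit of AP-1, and FGGY. It holds interferon response matches at bases 30 to 39 and 92 to 101 and an AP-1 match at 165 to 171. Its region was at rank 12972 and 6984 in the live control, 16754 and 12648 in high and 13634 and 13797 in low libraries. The LINC02391 window spans chr12:92363783-92364082 on the minus strand, in the desert between BTG1 and PLEKHG7. It holds an interferon response match at bases 89 to 98, an AP-1 match at 139 to 145 and an ETS match at 201 to 207. Its region was at rank 22324 and 15918, 16720 and 15172, and 9967 and 12965 in the live control, high and low libraries. Both regions stood far lower in the lists than that of LOC105379013.

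Over all lncRNA promoter windows, 150 windows of 141 genes held a summit of 131 desert regions, and 48 of these windows were held by the 42 desert regions called in all 6 libraries. The AP-1 letters TGANTCA stood in 15 of the 48 windows (31.2%), against 10.3% of 12569 lncRNA promoters and 7.67% of all 33725 promoters in the table. The RUNX letters TGTGGT stood in 18.8%, against 16.2% and 13.1%. The interferon response motif (GAAA and GAAA with 2 free bases between them) stood in 10.4%, against 4.22% and 3.57%, and the ETS letters GGAAGTG in 14.6%, against 9.34% and 11.3%. NF-kB letters (GGGA and TTTCC with 1 free base between them) were found in 2 windows (4.17%, against 0.676% and 0.572%). The BACH/NFE2 letters (TGC before the AP-1 form TGAGTCA) and the EBF1 letters (TCCC and GGGA with 2 free bases between them) were in none of the 48, and are in 0.148% and 1.22% of all promoters. Of the other motifs, CTCF (CCA, AG and GGC, each 2 free bases apart) and MEF2 (CTA and TAG with 4 free bases between them) were in 2 windows each, and OCT (ATGCAAAT) and PU.1-IRF (GGAA and GAAA with 2 free bases between them), which overlaps the ETS and interferon letters in part, in 1 each. The windows had a median GC content of 51.8%, against 50.0% for lncRNA promoters and 58.7% for all promoters. The 48 windows were chosen for a summit of a region called in all 6 libraries, whereas the promoters set beside them were taken whether open or not. Being open and lying in a desert thus cannot be told apart in these shares. A match describes the letters and is not a bound site, and neighbouring windows share sequence.

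The deserts themselves numbered 1516, counted as gaps of over 200 kb between neighbouring protein-coding genes less 100 kb at each end. They covered 822 Mb, which is 29.5% of the span of the autosomes analysed, with a median gap of 421 kb. Desert regions stood at 16.4 per Mb, against 33.3 per Mb in the 637 Mb of intergenic sequence 5 to 100 kb from a gene end. Centromeres and other sequence where reads cannot be placed were not removed from these lengths, and the longest gap was 22439 kb. How much of the difference in density comes from such sequence was not tested. The median desert held 4 regions, 293 deserts (19.3%) held none and 36 held at least 50. The median distance from a desert region to the nearest protein-coding gene end was 273 kb, and 4731 regions (34.9%) had no protein-coding gene midpoint within 500 kb. The next region of any kind lay a median of 12.5 kb away. A further 93 regions lay beyond the first or last protein-coding gene of a chromosome, and 1541 (11.4%) lay in gaps of over 3 Mb.

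A desert by this definition is not empty of genes of other kinds. In all, 4055 desert regions (29.9%) lay inside a lncRNA gene and 553 within 1 kb of a lncRNA gene end. Of 567 regions at a lncRNA or miRNA end, 116 were called in all 6 libraries. The RefSeq promoter table places the annotated start on 1 side of a lncRNA gene, and 261 regions lay at the start, 112 at the other end and 180 at genes without a matching entry. Immunoglobulin and T cell receptor segments are not counted as protein-coding genes, and 138 regions (1.02%) lay within 100 kb of one, 95 of them on chromosome 14, where the immunoglobulin heavy chain locus lies. The regions closest to the 100 kb limit were 100019, 100038 and 100045 bp from a gene end on the inside and 99993, 99990 and 99984 bp on the outside.

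Most desert regions were called in few libraries. Each library's list is its own peak call, and the lists differed in length, holding 66381 and 68626 regions in the live control, 24326 and 44046 in high and 39714 and 49111 in low libraries. Of the desert regions, 6562 (48.4%) were called in 1 library, against 33.4% of the 21229 intergenic regions 5 to 100 kb from a gene end and 13.2% of the 13546 regions within 1 kb of a gene end. Called in all 6 libraries were 1692 desert regions (12.5%), against 16.6% of the intergenic regions, 17.2% of the 34157 regions inside genes over 5 kb from an end and 53.7% at gene ends. Over all regions the share called in all 6 full lists was 21.7%. The single-library calls were 1963 and 2353 in the live control, 410 and 418 in high and 693 and 725 in low libraries, so most came from the longest lists. Within deserts, the share called in all 6 was 14.8% at 100 to 200 kb from a gene, 12.1% at 200 to 500 kb, 9.75% at 500 to 1000 kb and 10.2% beyond.

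**Figure D1:**
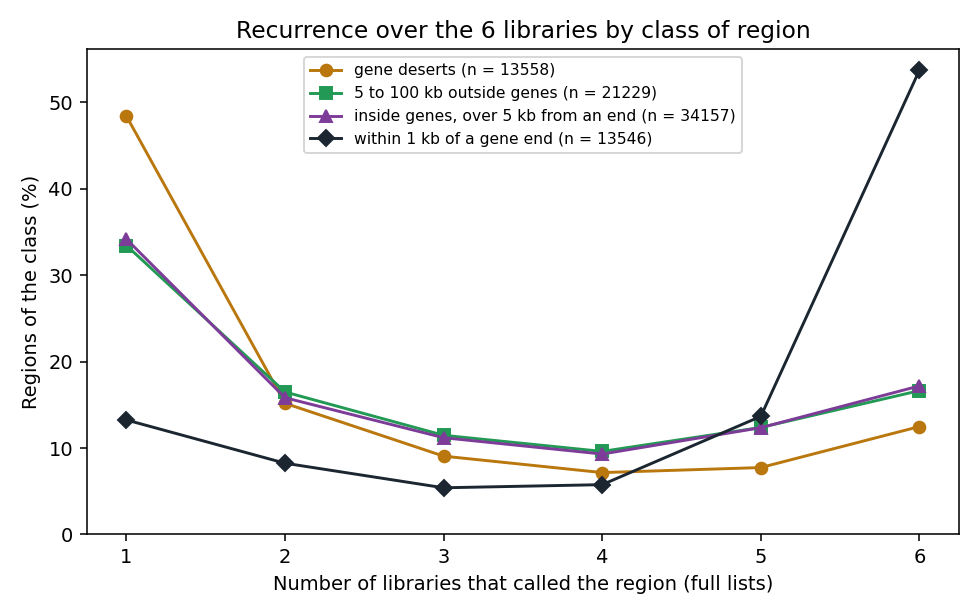
Share of each class of region (vertical axis, %) against the number of libraries that called it in the full lists (horizontal axis). Gene desert regions were most often called in 1 library (48.4%), whereas regions within 1 kb of a gene end were most often called in all 6 (53.7%).

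Desert regions stood low in every list. The median desert region stood at the 64.5th and 64.9th percentile of its list in the live control, at 63.0 and 59.7 in high libraries and at 65.6 and 63.5 in low libraries, where 0 is the best-scored region and 100 the worst. Intergenic regions nearer to genes stood at 54.1 and 54.0, 57.2 and 57.0, and 57.8 and 56.8 in the same order. The difference was 7.36 percentage points on average and had the same direction in 6 of 6 libraries (two-sided exact sign-flip permutation test p = 0.03125, the smallest that 6 libraries allow, adjusted p = 0.0625 over 4 comparisons of classes). Against regions inside genes over 5 kb from an end it was 7.24 points, also in 6 of 6 libraries, with the same exact p and adjusted p. Neither comparison passed 0.05 after adjustment. Within the best 24326 regions of each list the differences were 2.19 and 1.90 points (adjusted exact p = 0.0625 for both). Among regions called in all 6 libraries the classes lay closer, with a median desert rank of 15365.5 against 13489 for intergenic regions in live control replicate 1 and of 11105 against 11699.5 in high replicate 1.

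A number of desert regions ranked among the best of the whole genome in all 6 libraries. The best of them, on chromosome 3 from 93470576 to 93470596 (hg38) between EPHA3, an ephrin receptor gene, and PROS1, which encodes the anticoagulant protein S, was at rank 1 in all 6 lists. It lay 402.5 kb from PROS1 and 1177499 bp from the nearest noncoding gene end. Whether the authors left out regions of known mapping artefacts is not given in the sources used here, and the mappability of this region was not tested. The next, between NPVF and NFE2L3 on chromosome 7 from 25862470 to 25862629, was at rank 283 and 618 in the live control, 255 and 162 in high and 402 and 52 in low libraries. NFE2L3 encodes a transcription factor of the cap'n'collar family.

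Several of these top regions lay beside genes known in lymphocytes. The region between PREP and PRDM1, the gene of the plasma cell factor BLIMP-1, on chromosome 6 from 105646564 to 105646633, was at rank 444 and 429 in the live control, 148 and 266 in high and 1350 and 924 in low libraries. It was nearer to PREP, at 243.5 kb. The region between MEF2C and CETN3 on chromosome 5 from 89313998 to 89314073 lay 409.9 kb from MEF2C, a transcription factor needed for B cell proliferation, inside the lncRNA gene MEF2C-AS1. It was at rank 272 and 141, 195 and 427, and 1699 and 881 in the same order. In both cases the low libraries placed the region below the other 4.

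Other top regions lay beside genes with roles outside the B lineage. The region between H3Y1 and CDH18, a cadherin gene, 772.7 kb from the latter, was at rank 78 and 84 in the live control, 269 and 112 in high and 729 and 460 in low libraries. The region between FAM3C and PTPRZ1 was at rank 175 and 276, 17 and 258, and 641 and 817. Regions between FIGN and GRB14, between DMAC1 and PTPRD, and between RUNX2, the bone transcription factor gene, and CLIC5 had worst ranks of 1704, 1740 and 1850 over the 6 libraries. In each of these 3 the worst rank was in a low library or, for the DMAC1 region, in live control replicate 1.

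Of the top regions at noncoding ends, the one between SPATA31A1 and FOXD4L6 on chromosome 9, 381 bp from LOC107986997, was at rank 207 and 436, 79 and 532, and 573 and 875. The one between CNTN3 and FRG2C on chromosome 3, 181 bp from LINC02018, was at rank 1315 and 1571, 804 and 1062, and 1131 and 1099. SPATA31A1, FOXD4L6 and FRG2C belong to families of near-identical gene copies, so reads at these places can be shared between copies and the calls are uncertain. Further regions at lncRNA ends among the best 24326 of all 6 lists lay at LOC105376600 (worst rank 2259), LOC105374358 (2436), LOC105378308 (2776), LINC02328 (3235), LINC02100 (3366), LOC105379362 (3550) and LINC01320 (4759). LINC01320, between FAM98A and CRIM1, lay 183 bp from its region and 1078.1 kb from the nearest protein-coding gene.

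To compare groups, each list was cut to its best 24326 regions, the length of the shortest list, since longer lists reach further down into weak calls where desert regions are frequent. Desert regions then made up 7.56% and 7.65% of the live control lists (7.60% ± 0.0610, SD, n = 2), 10.8% and 8.52% of the high lists (9.64% ± 1.59, SD, n = 2) and 8.22% and 7.47% of the low lists (7.85% ± 0.526, SD, n = 2). Both high libraries lay above all others, and the low and live control libraries overlapped. High replicate 1, which is the whole of the shortest list, was the highest, at 10.8% against 8.52% in high replicate 2.

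None of the 4 comparisons of groups passed a threshold, and 2 libraries against 2 cannot give an exact p below 0.333. High exceeded low by 1.80 percentage points (two-sided exact permutation p = 0.333, adjusted p = 0.622) and the live control by 2.04 points (exact p = 0.333, adjusted p = 0.622). Low exceeded the live control by 0.243 points (exact p = 1). The 4 sorted libraries exceeded the live control by 1.14 points (exact p = 0.467, adjusted p = 0.622). Without high replicate 1, high exceeded low by 0.672 and the live control by 0.915 points, and the sorted libraries exceeded the live control by 0.467. Without high replicate 2, high exceeded low by 2.92 and the live control by 3.16 points.

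These differences also turned with the length of the lists. In the full lists the desert share was 12.2% and 12.6% in the live control, 10.8% and 10.4% in high and 11.2% and 10.6% in low libraries. High minus low was then -0.331 points, and sorted minus live control was -1.65 points (two-sided exact p = 0.0667, the smallest that 4 against 2 allow). In the best 2500 regions, a length chosen after seeing the data, the share was 4.08% and 4.24% in the live control, 6.60% and 4.48% in high and 1.56% and 1.68% in low libraries, and the groups did not overlap. The full lists and the best 2500 thus placed the low libraries below the live control, whereas the best 24326 placed their mean slightly above it. Which list length compares like with like was not tested, since the depth behind each list is unknown.

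**Figure D2:**
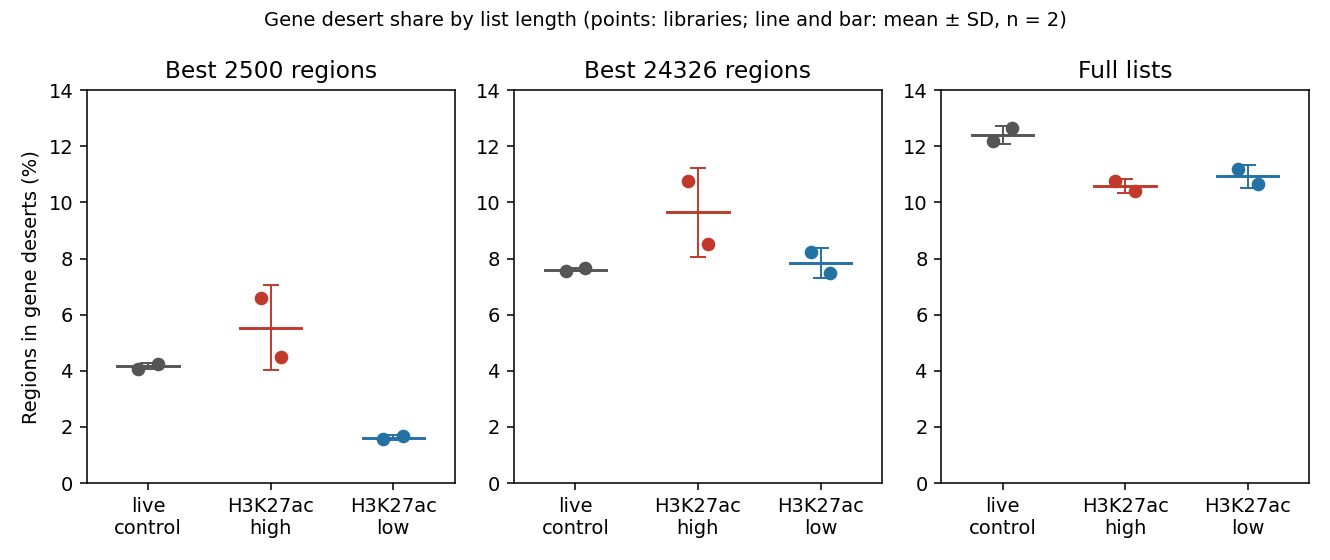
Share of regions in gene deserts (vertical axis, %) in each group for 3 list lengths, with points for libraries and a line and bar for the mean ± SD of 2 libraries. The low libraries lay at 1.56% and 1.68% in the best 2500 regions and at 8.22% and 7.47% in the best 24326, and the live control libraries were highest in the full lists.

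Along each list the desert share grew with rank. In the first 1000 regions it was 3.30% and 3.60% in the live control, 5.20% and 3% in high and 1.00% and 1.00% in low libraries. At ranks 20001 to 24326 it was 10.2% and 9.96%, 16.6% and 11.8%, and 11.6% and 10.3% in the same order. The low libraries were thus the lowest 2 of the 6 at the top of the list but not at its end.

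**Figure D3:**
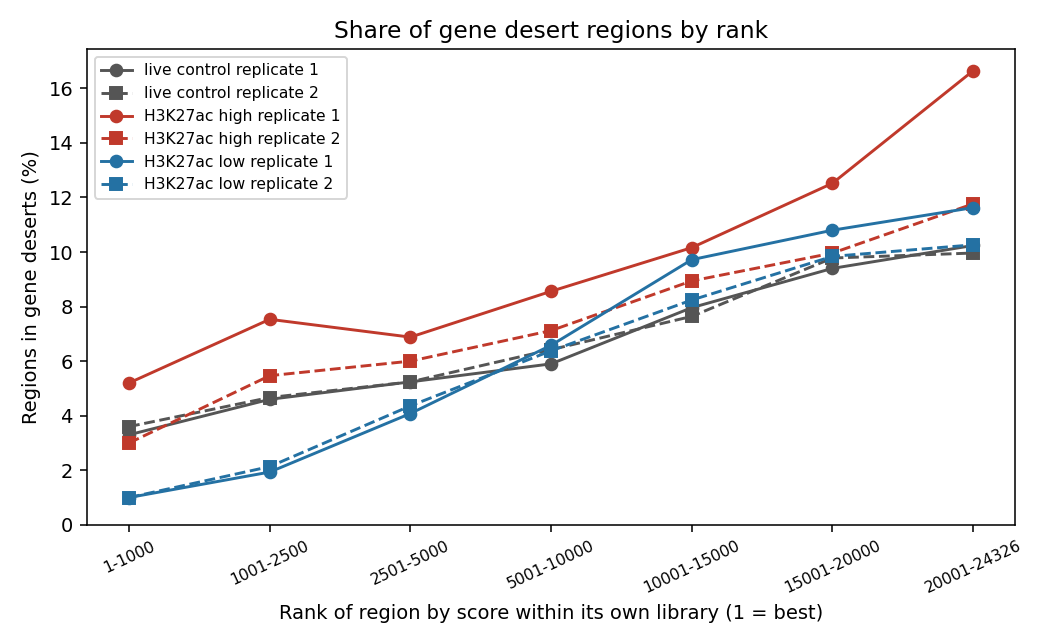
Share of regions in gene deserts (vertical axis, %) in bins of rank within a library (horizontal axis, best-scored regions at the left), 1 line for each of the 6 libraries. Both low libraries start at 1.00% and high replicate 1 ends at 16.6%, above the 5 other libraries.

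The top of the lists was also compared region by region. In the best 2500 of both live control and both high libraries stood 54 desert regions, of which 23 were also in the best 2500 of both low libraries and 16 were beyond it in both. All 54 were called in both low libraries, at median ranks of 2270 and 1976.5. For all 1137 regions chosen the same way, 897 were in the best 2500 of both low libraries, 88 beyond it in both, and the median low ranks were 914 and 878. Those regions are of all classes, gene ends among them, and no such count was made for intergenic regions alone. Among regions called in all 6 libraries, the first quartile of rank of intergenic regions was also lower placed in low libraries. That of gene ends went the other way, as given below. The regions near PREP, MEF2C and FIGN described above are examples of desert regions with lower placing in low libraries but a call in each. Since the regions were chosen for high rank in the other 4 libraries, these counts are a description.

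Few desert regions were present in the best 24326 of every library of 1 group and of none of the other. High-only against low were 136 regions (1.00% of the desert regions, against 0.97% of all regions), and 128 of them were called further down a low list. Low-only against high were 79 (0.583%, against 1.33%), sorted-only against the live control were 61 (0.450%, against 0.576%), and live-only against the sorted libraries were 64 (0.472%, against 0.851%). Of these, 68, 61 and 60 were also called further down a list of the other group. The high-only share was near the background and the other shares were below it, but only 3964 desert regions stood in any best list, against 38214 of all regions. Of those, 3.43% were high-only (2.33% of all regions in a best list), 1.99% low-only (3.19%), 1.54% sorted-only (1.38%) and 1.61% live-only (2.05%). Leaving out a library drops a condition of the rule, so a count can then only stay or rise. The rises below therefore do not test how stable the counts are. High-only came to 395 without high replicate 1 and 1020 without high replicate 2, and to 268 and 215 without low replicates 1 and 2. Low-only came to 152 and 219 without the same high replicates, and to 224 and 315 without low replicates 1 and 2. Sorted-only came to 118 and 115, and live-only to 183 and 199, without live control replicates 1 and 2. Sorted-only was also 96 without high replicate 1 and 107 without low replicate 2.

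Examples of each kind show how far down the lists of the other group such regions stood. Among high-only regions, the one between MC4R, a melanocortin receptor gene, and CDH20 on chromosome 18 was at rank 5912 and 12353 in high libraries, 36780 and 37691 in low and 29083 and 45765 in the live control. Others lay between TOX and CA8, TSN and CNTNAP5, TBX19 and XCL2, NDFIP2 and SPRY2, and NEUROD1 and ITPRID2, and all 6 were called in every library. Among low-only regions, the one between ZNF330 and IL15, the interleukin 15 gene, was at rank 14857 and 14313 in low libraries, 28977 in high replicate 2 and 18619 and 14844 in the live control, with no call in high replicate 1. Further low-only regions, between PAX6 and RCN1, PIK3R1 and SLC30A5, DIPK2A and PLOD2, and TSN and CNTNAP5, had the same gap in high replicate 1 and a call in the 5 other libraries. High replicate 1 has the shortest list, so a missing call there shows only that the region was not in it.

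Sorted-only regions included one 192.1 kb from CXCR4, a chemokine receptor gene of B cells, on chromosome 2 from 136310178 to 136310301. It was at rank 12031 and 12572 in high, 11705 and 10472 in low, and 50782 and 34330 in the live control libraries. Another, between SLITRK1 and SLITRK6, was at rank 5047 and 6399, 12308 and 12327, and 27089 and 29505. The remaining 4 lay between POU5F1B and MYC, AGA and TENM3, GRIK2 and HACE1, and C11orf87 and ZC3H12C. Among live-only regions, the one between MMS22L and POU3F2 was at rank 13509 and 12935 in the live control, 24431 in high replicate 2 and 31639 and 24747 in low libraries. Live-only regions also lay between PRSS58 and PRSS1, STIM2 and LOC124900844, EMP1 and GRIN2B, SOCS6 and CBLN2, and GOSR1 and CRLF3, and these 6 were called in 3 to 5 libraries.

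The sharing of desert regions between libraries was compared within and between groups. The Jaccard index, the number of desert regions shared by 2 best lists over the number in either, was 0.635 for the live control pair, 0.472 for the high pair and 0.613 for the low pair. The 3 same-group pairs averaged 0.573 and the 12 other pairs 0.526 (difference 0.0476, one-sided exact permutation p = 0.0667 over 15 ways to pair the libraries, the smallest they allow). The difference was 0.0154 without live control replicate 1, 0.0180 without live control replicate 2 and 0.124 without high replicate 2. The high pair lay below 8 of the 12 other pairs. High replicate 2 shared more with the low libraries (0.595 and 0.598) than with high replicate 1. Desert regions among the best 24326 were found again in the other library of their group in 78.1% and 77.3% of cases in the live control, 57.5% and 72.6% in high and 72.5% and 79.8% in low libraries. That was 3.26 percentage points less than for intergenic regions on average (difference -3.26, two-sided exact sign-flip p = 0.281, adjusted p = 0.344), and high replicate 1 differed most, by -13.9 points. Both libraries of a group count the same shared regions, so the 6 values come from 3 pairs. The sign-flip test treats them as 6 separate values, so its p-value counts more units than there are. In 2 of the 6 libraries the difference ran the other way, at 1.86 points in high replicate 2 and 2.06 in low replicate 2. It was -1.89 points when either high library, and with it the high pair, was left out, and 0.757 points in the best 12163 regions. Summit positions were compared only for regions called in all 6 libraries, as the median over library pairs of each pair's median distance. Summits of the same desert region lay 31 bp apart between libraries of 1 group and 33 bp between groups, and those of intergenic regions 31 and 32.5 bp apart.

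Desert regions at a lncRNA or miRNA gene end made up a like share of every list, and no comparison of groups passed a threshold. The share was 6.96% and 6.29% of the best-list desert regions in the live control (6.63% ± 0.474, SD, n = 2), 5.54% and 6.18% in the high (5.86% ± 0.453) and 6.30% and 6.60% in low libraries (6.45% ± 0.210). The high libraries lay below all others. The differences were -0.595 points for high against low, -0.768 for high against live control, -0.173 for low against live control and -0.471 for sorted against live control (two-sided exact permutation p = 0.333, 0.333, 1 and 0.4, adjusted p = 0.533, 0.533, 1 and 0.533). Without high replicate 1, high against low was -0.274 and sorted against live control -0.265. Without live control replicate 1, high against live control was -0.433, low against live control 0.162 and sorted against live control -0.136, and without live control replicate 2 the last pair were -0.508 and -0.806. In full lists all 4 differences had the opposite sign, at 0.464, 0.750, 0.287 and 0.519 points.

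The genes beside a desert were used to ask where recurrent regions lay. Deserts were grouped by 3 lists of flanking genes, of B lineage and lymphoblastoid genes, of developmental transcription factors and morphogens, and of neuronal adhesion, guidance and receptor genes. The 35 deserts beside 28 B lineage genes covered 18.5 Mb and held 641 desert regions, or 34.7 per Mb, of which 142 (22.2%) were called in all 6 libraries. The 92 deserts beside 72 developmental genes held 847 regions, or 16.5 per Mb, with 100 (11.8%) in all 6. The 109 deserts beside 73 neuronal genes held 2379 regions, or 16.8 per Mb, with 238 (10.0%) in all 6. Over all deserts the figures were 16.4 per Mb and 12.5%, so the B lineage deserts lay above all deserts on both counts, with 7.68 regions called in all 6 per Mb against 2.04. The lengths behind these densities again include any sequence where reads cannot be placed. The lists were chosen with earlier results of these data known, deserts are not replicates, and no test was made of these shares.

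**Figure D4:**
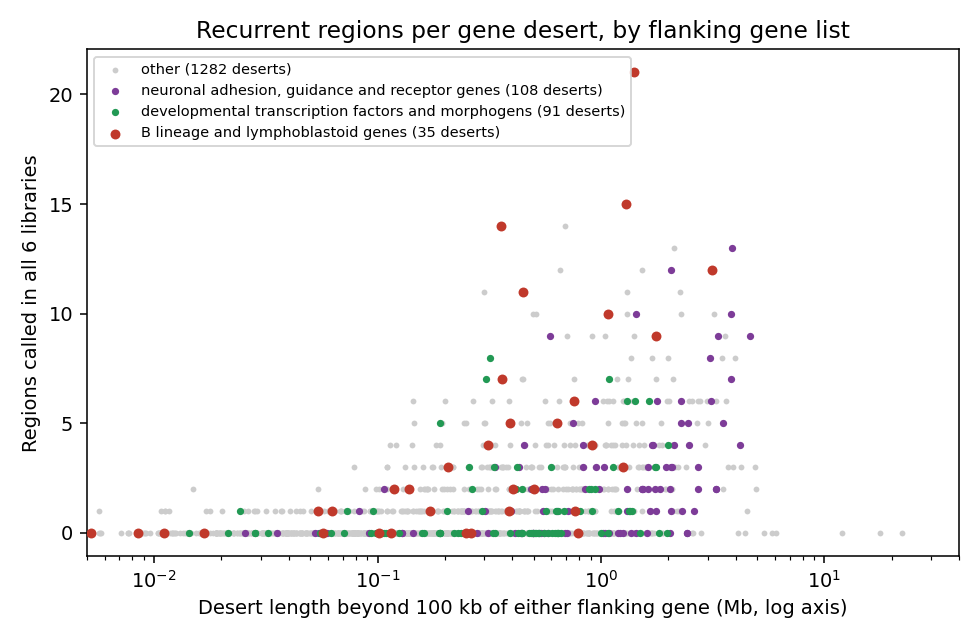
Number of desert regions called in all 6 libraries (vertical axis) against desert length (horizontal axis, Mb, log axis), 1 point for each desert, coloured by the list of its flanking genes, with a desert beside genes of more than 1 list drawn once. The most recurrent desert, between RNF144A and ID2, holds 21, and 43 deserts shorter than 5 kb, which hold none, are not drawn.

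Of the B lineage genes, BTG1, ID2 and MEF2C had the most recurrent desert regions within 500 kb. BTG1, an antiproliferative gene often mutated in B cell lymphoma, had 46 desert regions within 500 kb, 18 of them called in all 6 libraries. The best stood at rank 647 and 1047 in the live control, 896 and 1248 in high and 4676 and 4191 in low libraries, 361.2 kb from the gene. MEF2C had 33 regions with 13 in all 6, and its best region was described above. CXCR4 had 26 with 11 in all 6, and its best region was at rank 4215 and 3195, 2473 and 3884, and 6508 and 6613. PTPRC had 26 with 8 in all 6, the best at rank 1414 and 1494, 547 and 633, and 2549 and 1650. MYC had 32 with 9 in all 6, the best inside the lncRNA gene PVT1, at rank 1024 and 655, 1002 and 1017, and 4487 and 2736. In each of these 5 genes the low libraries placed the best region below the other 4 libraries. Lower placing in low libraries was not particular to deserts. Among intergenic regions called in all 6 libraries, the first quartile of rank was 8668 and 8414 in low libraries. It was 7655 and 7375 in the live control and 6406 and 7302 in high libraries. Gene ends went the other way, at 2234.5 and 2267.5 in low libraries and 2666 to 3016 in the others.

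The list was not even. TNFAIP3, the NF-kB inhibitor A20, had 21 desert regions within 500 kb with 1 in all 6, and the desert between OLIG3 and TNFAIP3 was the densest of those with a gap of at least 300 kb and at least 5 regions, at 122 per Mb. BCL11A and RGS1 flanked a desert but had no region within 500 kb in it. Their deserts covered only 0.002344 and 0.008488 Mb, so this absence does not show a lack of open regions. Other genes of the list had desert regions within 500 kb but none called in all 6 libraries. These were IKZF2 (10 regions), ZEB2 (5), RUNX1 (4), RUNX3 (4), CD24 (3), SYK (3) and BACH2 (2). The desert beside ZEB2 covered 3.12 Mb and that beside RUNX1 0.785 Mb. SATB1 had 26 regions with 4 in all 6. EBF1 and PRDM1 had 13 regions each with 5 in all 6.

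Of the developmental genes, NR2F2, SOX9 and BMP2 had the most desert regions within 500 kb. NR2F2, a nuclear receptor gene, had 37 desert regions within 500 kb with 6 in all 6 libraries, SOX9 had 33 with 9, BMP2 had 31 with 3, DACH1 had 26 with 3 and BARHL2 had 18 with 0. TBX18, a T-box factor gene, had 26 with 7, all 7 also among the best 24326 of all 6 lists. Its best region was at rank 637 and 604 in the live control, 2352 and 1237 in high and 3543 and 1698 in low libraries. That of DACH1 was at 1773 and 1611, 852 and 3739, and 2834 and 2578.

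Beside neuronal genes, several cadherins had many desert regions and few or none in all 6 libraries. CDH7 had 28 desert regions within 500 kb and CDH19 had 24, with 0 in all 6 libraries for either, and the region near both that was called in most libraries was at rank 38072 and 22105 in the live control, 39164 in high replicate 2 and 34633 in low replicate 1. ERBB4, a receptor gene for neuregulins, had 23 with 0, PCDH18 had 24 with 2 and CSMD3 had 29 with 2. CDH12 had the most of the 6 genes named by number of regions, with 5 of 27 regions in all 6, the best at rank 3845 and 1906, 868 and 4193, and 2379 and 4897. CSMD1, named after its values were seen, had 9 of 14 regions in all 6 libraries, the most of this list.

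The desert between RNF144A and ID2 on chromosome 2 held 82 regions, 58.3 per Mb, and more regions called in all 6 libraries than any other desert. ID2 encodes an inhibitor of basic helix-loop-helix factors that antagonises E proteins in lymphocytes. In the full lists 63 and 65 regions were called in the live control, 25 and 57 in high and 43 and 55 in low libraries, but among the best 24326 the numbers were 24 and 27, 25 and 33, and 27 and 26. The shortest list thus held the fewest of these regions, and at equal length 5 libraries held 24 to 27 and high replicate 2 held 33. Of the 16 regions in the best lists of all 6, the nearest to ID2 stood 138.3 kb away at rank 2880 and 3162, 1584 and 2686, and 4260 and 4900. A run of 8 of them lay inside the lncRNA gene LINC00299. The best single placing was rank 539 in high replicate 1, for the region 273 kb from ID2.

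**Figure D5:**
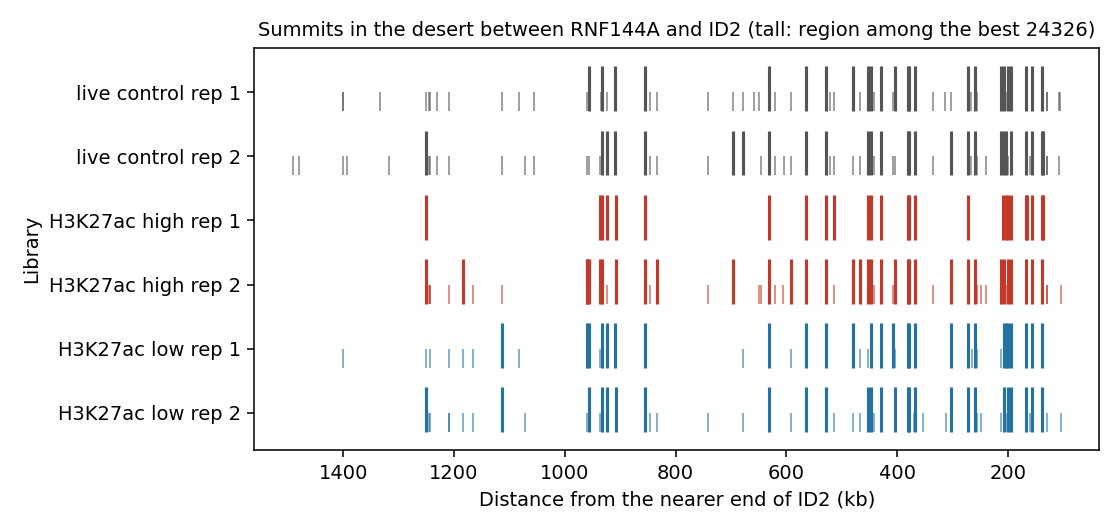
Summits in the desert between RNF144A and ID2 by library (rows) against the distance from the nearer end of ID2 (horizontal axis, kb), with tall marks for summits whose region is among the best 24326 of that library. A total of 16 regions have tall marks in all 6 libraries, the nearest of them 138.3 kb from ID2.

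The deserts with most regions were long ones. The desert between AGA and TENM3 on chromosome 4 held 109 regions with 7 in all 6 libraries, that between TMEFF2 and SLC39A10 held 101 with 10, that between PCDH7 and ARAP2 held 93 with 9, that between C4orf33 and PCDH10 held 85 with 10, and that between NUDT12 and EFNA5 held 78 with 6. In the best lists the AGA desert had 5 and 8 regions in the live control, 16 and 9 in high and 10 and 8 in low libraries. Among deserts with a gap of at least 300 kb and at least 5 regions, the densest after the OLIG3 desert were those between ZNF184 and H2BC13 (112 per Mb), ZNF217 and BCAS1 (110 per Mb) and UBE2E3 and ITGA4 (98.05 per Mb, 5 of 19 regions in all 6). The farthest region called in at least 2 libraries lay at the start of chromosome 22, 3553.9 kb from OR11H1, and was called in high replicate 2 and both low libraries at ranks 37163, 30029 and 23514. It lay before the first protein-coding gene of the chromosome, and its mappability was not tested. The next 2, in the desert between PCDH7 and ARAP2, lay 2365.8 and 2265.2 kb from a gene end and were called in 5 and 2 libraries.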

How the data were processed

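The authors deposited 1 list of single-base peak summits per library, each with a score that was read as the −log10 of a p-value or q-value; which of these it is cannot be read from the deposited lists. Per the submitters' processing notes, bcl2fastq, FastQC, Bowtie2, Picard and MACS2 were used and the builds hg38 and hg19 are named. Caller settings, duplicates, the Tn5 shift and any excluded problem regions were not given in the sources used here. Positions fit hg38 and are 1-based. The lowest score was 2.02. Read depth is unknown, so no intervals are given, and scores were used only to rank regions within a list, ties being broken by a seeded draw.

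The 308962 summits included 10479 (3.39%) off chromosomes 1 to 22, which were not used. Distances came from 18973 protein-coding genes of the RefSeq table for GRCh38.p14, and 153 entries on other assembly sequences were left out. Exact permutation tests over libraries were run in Python 3.11.15 with pandas 2.3.3 and numpy 2.4.6 and adjusted by Benjamini-Hochberg. The high-only and low-only rules were tried on simulated lists with planted regions, and the permutation and sign-flip tests only on fixed numbers.

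Regions were named by fixed rules: the 12 best over all 6 lists, the 6 best of each group-only kind (1 per desert), the 3 farthest, the 6 largest and 4 densest deserts, 10 regions at noncoding ends, and up to 6 genes of each list. One low-only region named by these rules is not reported here. The regions, lists, rules and motifs were chosen with earlier results of these data known. A genome sequence was not used here, so motifs were searched in promoter windows. One protocol text writes the antibody target as H3K37ac, which was read as H3K27ac. Alternatives covered list length, score, chaining and desert distance, noncoding ends, long gaps, gene table entries and each library left out.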

Additional observations from a re-analysis of the deposited data

How the results depend on the processing

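Of 210 recomputed values, 163 kept their direction or size, 22 had the opposite sign and 25 counts moved by over 1.5 times. In full lists the desert share differences were -0.331 (high against low), -1.82 (high against live control), -1.49 (low against live control) and -1.65 points (sorted against live control), and with a score of at least 5 they were -0.239, -1.56, -1.32 and -1.44. Low against live control was also -0.469 in the best 12163 regions and -2.54 in the best 2500, where sorted against live control was -0.58. Without high replicate 1 and with lists lengthened to 39714, high against low was -0.278. Recurrence in the best 12163 was 0.757 points above intergenic and 1.32 above intragenic regions. Noncoding-end differences in full lists were 0.464, 0.750, 0.287 and 0.519 points, and low against live control was 0.245 in the best 12163 and 0.0389 with a 2500 bp window. The causes were not tested. Leaving out single libraries gave 0.672 to 2.92 (high against low), 0.915 to 3.16 (high against live control), -0.129 to 0.615 (low against live control) and 0.467 to 1.56 (sorted against live control) for the desert share. It gave -0.915 to -0.274, -1.10 to -0.433, -0.508 to 0.162 and -0.806 to -0.136 for noncoding ends, 6.65 to 8.30 and 6.58 to 8.08 for rank, -4.01 to -1.89 and -3.52 to -1.48 for recurrence and 0.0154 to 0.124 for the Jaccard difference. The counts of high-only, low-only, sorted-only and live-only regions were 61, 349, 4 and 1111 in full lists and 8, 11, 0 and 4 when absence from the other group's full lists was required. In the best 12163, low-only, sorted-only and live-only were 26, 31 and 25, and without single libraries the 4 counts ranged over 215 to 1020, 152 to 315, 88 to 118 and 80 to 199. Leaving out a library drops a condition and can only keep or raise a count, and requiring absence from full lists can only keep or lower it. The counts that moved include such values, whose direction was set by the rule.

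Deviations of same-numbered libraries over the 1692 desert regions called in all 6 libraries correlated at 0.000163, -0.0595 and 0.0977. Regions are not replicates, so these values cannot show whether same-numbered libraries share a batch. With the replicate number as a block the desert share differences were 1.80, 2.04, 0.243 and 1.14 points (exact sign-flip p = 0.5, 0.5, 1 and 0.5). This sign-flip test cannot give a p below 0.5, so the block could not change a call.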
